A study of Homo sapiens with 24 samples.

Results

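The core and linker histone genes were followed across 24 RNA sequencing libraries of SBC-3, an established human cell line from a small cell lung cancer. Members were taken by name: the numbered genes of the H1, H2A, H2B, H3 and H4 families, each with at least 10 reads over all libraries. The files held 68 such symbols, of which 55 of 60605 genes met the rule: 6 H1, 13 H2A, 17 H2B, 8 H3 and 11 H4 genes. Of these, 45 lie in the cluster at 6p22, 6 at 1q21, 2 at 1q42 and 1, H4C16, on chromosome 12. The other 13 symbols had fewer than 10 reads and 8 of them had none, among them near-identical copies such as H3C14, H3C15 and H4C15. How reads that map to several copies were treated is not given in the sources used here, so levels of near-identical genes are uncertain.

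Core histones form the octamer around which DNA is wrapped, and linker histones of the H1 family bind the DNA between octamers. Most of these genes are replication-dependent: they are transcribed in S phase, lack introns, and give mRNAs that end in a conserved stem-loop, bound by SLBP, in place of a poly(A) tail. Some can also give polyadenylated transcripts by reading on to a poly(A) signal.

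All libraries were made from poly(A)-selected RNA, so the reads of these genes stem from transcripts that carried a poly(A) stretch or passed the selection without one. Cells were wild type and were collected 72 h after transfection of a small interfering RNA (siRNA) or antisense oligonucleotide (ASO) at 10 nM. In the siRNA arm, siSFPQ-2 and siSFPQ-3 target SFPQ, and siNONO-3 and siNONO-4 target NONO, both RNA-binding proteins of nuclear bodies called paraspeckles, and siCtrl is the control. In the ASO arm, ASO-NEAT1-1047 and ASO-NEAT1-1473 are directed at NEAT1, the noncoding RNA scaffold of paraspeckles, and ASO-Ctrl is the control. Each of the 8 groups had 3 libraries, and total counts ran from 4243196 to 14886353 per library. The labels do not name separate cultures as the source of replicates, so the p-values stand for the spread of these libraries, which can be technical.

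SFPQ RNA averaged 208 ± 47.3 CPM (counts per 1000000, after scaling of library size) with siSFPQ-2 and 222 ± 27.2 CPM with siSFPQ-3, against 1223 ± 40.2 CPM with siCtrl (SD, n = 3 each). NONO RNA averaged 69.2 ± 9.3 CPM with siNONO-3 and 70.1 ± 5.06 CPM with siNONO-4, against 399 ± 14.8 CPM with siCtrl (SD, n = 3 each). NEAT1 RNA averaged 297 ± 47 CPM with ASO-NEAT1-1047 and 206 ± 25.4 CPM with ASO-NEAT1-1473, against 297 ± 85.8 CPM with ASO-Ctrl (SD, n = 3 each), a log2 fold change of -0.26 for the mean of both ASOs that was not called. These are therefore named as the libraries labelled ASO-NEAT1. Of the small cell lung cancer markers, YAP1 (294 to 504 CPM) and SOX2 (367 to 508 CPM) were high in every library, while INSM1 (0 reads) and CHGA (23 reads over all libraries) were at or near 0. Markers of other cell types were near 0, the highest single value being 3.47 CPM of COL3A1. ASO-Ctrl replicates 1 and 2 stood apart from all other libraries: RNAs known to lack a poly(A) tail, such as small nuclear RNAs, summed to 37.1 and 30.9 RPM (reads per 1000000 counts of the library, with no further scaling) there, against 287 in ASO-Ctrl replicate 3 and 178 to 239 in the libraries labelled ASO-NEAT1. Many counts, medians and fold changes that rest on ASO-Ctrl, though not all, are also given without ASO-Ctrl replicates 1 and 2.

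The sequences that set the transcript ends are shown first, because a histone transcript can end at its stem-loop or at a poly(A) signal further on. In the GENCODE 29 transcripts, which matched 54 of the 55 genes, a 16-base histone stem-loop motif was found in 26 genes, and in 113 of all 206694 transcripts (0.0547%). In 20 genes a transcript ran on for 100 bases or more past the stem-loop, and in 11 of these it had the poly(A) signal AATAAA within its last 50 bases. Many of the short genes are annotated only from start to stop codon, so their stem-loops are outside these transcripts. In the lines that follow capitals mark the 16-base stem-loop or the AATAAA, with the flanking bases in lower case, read along the strand of the gene in build GRCh38.
H2AC6 stem-loop, chr6:26124669-26124684, plus strand: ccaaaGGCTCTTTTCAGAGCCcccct
H2AC6 poly(A) signal, chr6:26139088-26139093, plus strand: ggcatgaggtAATAAAaggtaatgca
H2BC5 stem-loop, chr6:26158587-26158602, plus strand: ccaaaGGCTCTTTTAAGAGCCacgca
H2BC5 poly(A) signal, chr6:26158615-26158620, plus strand: gcatgttttcAATAAAtgagttgtaa
H2BC6 stem-loop, chr6:26184210-26184225, plus strand: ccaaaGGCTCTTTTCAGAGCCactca
H2BC6 poly(A) signal, chr6:26184636-26184641, plus strand: taaaggaaaaAATAAAaccctcttcc
H3C6 stem-loop, chr6:26225596-26225611, plus strand: ccaaaGGCTCTTCTCAGAGCCaacca
H3C6 poly(A) signal, chr6:26227452-26227457, plus strand: tgagatgtaaAATAAAagattactga
H4C16 stem-loop, chr12:14770724-14770739, minus strand: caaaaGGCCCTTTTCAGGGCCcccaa
H2AC8 stem-loop, chr6:26217417-26217432, plus strand: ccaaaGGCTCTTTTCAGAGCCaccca
These sites were chosen after the values were seen. For each gene the annotated transcript that ran furthest past the stem-loop was taken. It went on for 1128 bases in H2AC6, 39 in H2BC5, 430 in H2BC6, 1862 in H3C6 and 1510 in H4C16. In H2AC8 it went on for 51. In H2AC6, H2BC6 and H3C6 the AATAAA stood 23, 14 and 16 bases before the transcript end. The H2AC6 and H4C16 transcripts carry the annotation class nonsense-mediated decay. Protein-coding transcripts of these genes with the motif went on for 1114 and 169 bases. H2BC5 also has a 2-exon transcript without the motif.

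Histone gene starts also share letters. Of the 50 genes matched to a RefSeq promoter (250 bases before to 50 after the start, GRCh38.p14), 66% held TATAAA, 84% CCAAT and 44% the octamer ATTTGCAT on either strand, against 14%, 39.7% and 2.19% of all 27305 promoters in the table. The octamer was found in 9 of 12 H2A and 13 of 17 H2B promoters and in none of the 5 H1, 7 H3 and 9 H4 promoters. A match is a description of these windows, not evidence of binding. The promoter of H2BC21 is printed because H2BC21 and H2AC20 start 266 bases apart on opposite strands and so share it. Capitals mark the octamer, the TATAAA and the CCAAT motif, on whichever strand it was found.
H2BC21, chr1:149886633-149886932, minus strand, GRCh38.p14: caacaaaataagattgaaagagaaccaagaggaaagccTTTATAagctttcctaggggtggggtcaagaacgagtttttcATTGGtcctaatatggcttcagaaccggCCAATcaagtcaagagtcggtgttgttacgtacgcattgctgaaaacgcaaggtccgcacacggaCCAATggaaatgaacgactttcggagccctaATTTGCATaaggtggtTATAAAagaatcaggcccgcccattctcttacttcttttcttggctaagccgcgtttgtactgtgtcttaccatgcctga

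Reads were spread unevenly over these genes. H2AC6 held 10356 reads over the 24 libraries, H2BC12 5723, H2BC5 5616 and H1-2 4607, whereas 9 genes had fewer than 100. Per kilobase of annotated exon in siCtrl, H2BC12 stood at 32.4 CPM per kb, H1-2 at 19.2, H4C3 at 16.8, H2BC5 at 16.7 and H2AC6 at 15. Of the 55 genes, 43 have 1 annotated exon and 12 have several, and 21 exceed 1000 exonic bases. Exons of 8 genes overlap another gene, H2BC15 with H2AC15 and H2BC6 with an antisense gene among them, and the strand setting of the counting is not given in the sources used here, so reads of such pairs may be mixed.

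**Figure D1:**
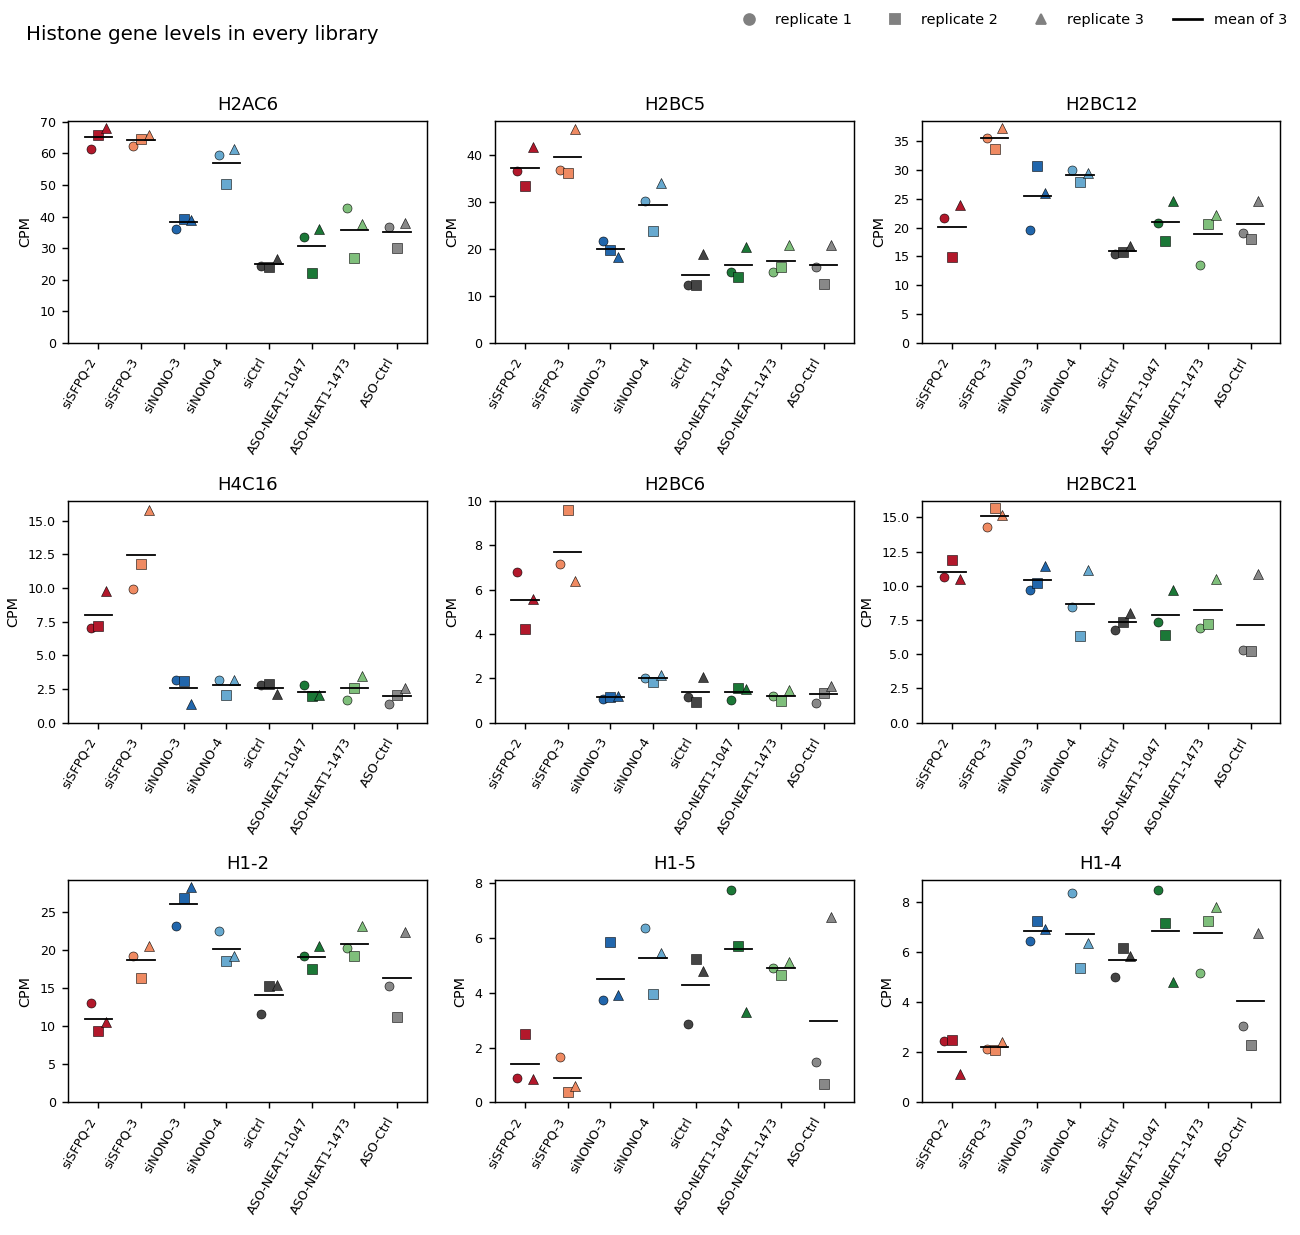
Levels of 9 histone genes in CPM (counts scaled with TMM factors) in each of the 24 libraries, on linear axes that start at 0; symbols are replicates 1 to 3 and bars are means of 3. H2AC6, H2BC5, H4C16, H2BC6 and H2BC21 are higher in all 6 siSFPQ libraries than in the 3 siCtrl libraries, H1-5 and H1-4 are lower, and in ASO-Ctrl replicates 1 and 2 lie below replicate 3 for H1-5 and H1-4.

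SFPQ knockdown moved the histone genes in opposite directions: 11 rose and 11 fell. H2BC6, H4C16, H2BC5 and H2AC6 were among the risen genes, and the fallen ones were led by H2BC10, H1-5, H2AC12, H2BC14 and H2AC20. A gene was called at an adjusted p under 0.05 in edgeR's quasi-likelihood test over all 15869 genes tested, and 42 of the 55 histone genes passed the filter on low counts. The shares called were 26.2% in each direction, against 34.7% higher and 35.8% lower over all genes tested (70.4% in either direction), so the count of calls was not above the background. The median log2 fold change was -0.02 for the histone genes and -0.02 for all genes. Genes that pass the filter through a group where they are high differ by that choice, so nothing is read from the count alone. The other 13 genes, with 10 to 151 reads each over all libraries, were not tested.

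Among the H2A genes, 1 of 11 tested rose and 4 fell. H2AC6, the H2A gene with most reads, had 61.4, 65.7 and 68.1 CPM in siSFPQ-2 and 62.5, 64.7 and 65.9 CPM in siSFPQ-3, against 24.2, 24.1 and 26.7 CPM in siCtrl. All 6 siSFPQ libraries lay above the 3 siCtrl libraries, with little spread within a group. The gene stood at 258% of its siCtrl level (1.37 on the log2 scale, SE 0.13, adjusted p = 1.49e-09). The H2A genes that fell were H2AC12, H2AC20, H2AC16 and H2AC8, with log2 fold changes of -1.77, -1.48, -1.23 and -0.90. H2AC20 had 1.28, 1.98 and 0.21 CPM in siSFPQ-2 and 0.477, 0.245 and 0.361 CPM in siSFPQ-3, against 1.88, 1.84 and 1.38 CPM in siCtrl. Its siSFPQ-3 libraries lay below siCtrl, while siSFPQ-2 replicate 2 lay just above all siCtrl libraries (log2 fold change -1.48, SE 0.43, adjusted p = 0.0035). That value stands for 8 reads in the library with the lowest total count, 4243196. The siCtrl libraries held 21, 18 and 19 reads of the gene, so the order of these values is uncertain.

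Of the 15 H2B genes tested, 6 rose and 3 fell. H2BC5 had 36.6, 33.5 and 41.7 CPM in siSFPQ-2 and 36.9, 36.1 and 45.7 CPM in siSFPQ-3, against 12.3, 12.4 and 18.9 CPM in siCtrl (log2 fold change 1.39, SE 0.17, adjusted p = 1.2e-07). H2BC6 had 6.78, 4.22 and 5.56 CPM in siSFPQ-2 and 7.16, 9.57 and 6.38 CPM in siSFPQ-3, against 1.16, 0.92 and 2.04 CPM in siCtrl (2.21, SE 0.25, adjusted p = 1.09e-08). The groups did not overlap for either gene, and H2BC6 stood at 463% of its siCtrl level. H2BC21 had 10.6, 11.9 and 10.5 CPM in siSFPQ-2 and 14.3, 15.7 and 15.2 CPM in siSFPQ-3, against 6.79, 7.36 and 8.01 CPM in siCtrl, again without overlap (0.79, SE 0.2, adjusted p = 0.00108). H2BC18 rose by 1.06 on the log2 scale, without overlap between its 6 siSFPQ and 3 siCtrl libraries; its exons overlap FCGR1A on the other strand.

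For the last of the risen H2B genes the siRNAs differed. H2BC15 had 8.18, 10.9 and 11.3 CPM in siSFPQ-2 and 12.5, 17.7 and 17.7 CPM in siSFPQ-3, against 6.25, 6.24 and 8.89 CPM in siCtrl (0.82, SE 0.19, adjusted p = 0.00035). H2BC12, which has 1 short exon, had 21.7, 14.9 and 23.9 CPM in siSFPQ-2 and 35.6, 33.6 and 37.3 CPM in siSFPQ-3, against 15.5, 15.7 and 16.8 CPM in siCtrl (0.76, SE 0.16, adjusted p = 0.000134). For both genes siSFPQ-3 lay above siCtrl and siSFPQ-2 overlapped it. The H2B genes that fell were H2BC10 (-2.43, SE 0.45, adjusted p = 2.9e-05), H2BC14 (-1.50) and H2BC17 (-1.20). H2BC10 had 0.511, 0.496 and 0.21 CPM in siSFPQ-2 and 0.358, 0.123 and 0.241 CPM in siSFPQ-3, against 1.61, 1.94 and 1.53 CPM in siCtrl, which is 14 reads in the 6 siSFPQ libraries and 58 in the 3 siCtrl libraries.

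Of the H4 genes tested, 2 of 6 rose and 1 fell. H4C16, the H4 gene outside the clusters, had 7.03, 7.19 and 9.76 CPM in siSFPQ-2 and 9.9, 11.8 and 15.8 CPM in siSFPQ-3, against 2.77, 2.86 and 2.11 CPM in siCtrl. No siSFPQ library overlapped siCtrl (1.97, SE 0.25, adjusted p = 8.25e-08). H4C8 had 5.24, 6.7 and 6.51 CPM in siSFPQ-2 and 11.1, 11.7 and 10 CPM in siSFPQ-3, against 3.93, 3.48 and 5.83 CPM in siCtrl, with siSFPQ-2 overlapping siCtrl (0.86, SE 0.21, adjusted p = 0.000797). H4C4, named here because it was the only H4 gene to fall, changed by -0.87. Of the H3 genes, 2 of 5 tested rose and none fell. H3C10 rose by 0.99. H3C6 had 63 reads in the 6 siSFPQ libraries and 5 in the 3 siCtrl libraries (log2 fold change 3.13). It averaged 1.22 CPM with siSFPQ-2 and 1.53 CPM with siSFPQ-3, and 0.0246 to 0.204 CPM in the other groups, so it passed the filter through the groups where it is high, and its call carries no weight of its own.

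Of the 5 H1 genes tested, 3 linker histone genes of the 6p22 cluster fell, H1-3, H1-4 and H1-5, and H1-2 did not pass the test. H1-4 had 2.43, 2.48 and 1.15 CPM in siSFPQ-2 and 2.15, 2.09 and 2.41 CPM in siSFPQ-3, against 5, 6.13 and 5.83 CPM in siCtrl (-1.46, SE 0.28, adjusted p = 4.7e-05). H1-5 had 0.895, 2.48 and 0.839 CPM in siSFPQ-2 and 1.67, 0.368 and 0.602 CPM in siSFPQ-3, against 2.86, 5.21 and 4.81 CPM in siCtrl (-2.04, SE 0.56, adjusted p = 0.00319). Both genes were lower in all 6 siSFPQ libraries, as was H1-3 (-1.27). H1-2 differed by siRNA: it had 13, 9.42 and 10.5 CPM in siSFPQ-2 and 19.2, 16.3 and 20.5 CPM in siSFPQ-3, against 11.6, 15.2 and 15.4 CPM in siCtrl (0.03, 95% interval -0.29 to 0.36). Taken alone, siSFPQ-2 called 17 histone genes (8 higher and 9 lower; 32.4% of all genes tested in each direction, 64.9% in either) and siSFPQ-3 called 22 (14 higher and 8 lower; 33.7% and 33.3% of all genes, 67% in either). The siSFPQ-2 count was 10 without siCtrl replicate 2 and 9 without siSFPQ-2 replicate 3. With the replicate block, where the numbers pair the siSFPQ-2 and siCtrl libraries, H2BC12 (0.37, adjusted p = 0.0336) and H2BC15 (0.48, adjusted p = 0.0194) were called as well.

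Single siCtrl libraries decided some of the falls. H2AC12 was not called without siCtrl replicate 2 (-1.11, adjusted p = 0.158) and was -2.77 without siSFPQ-2 replicate 1. H2BC17 was lost without siCtrl replicate 2 or 3 (adjusted p = 0.084 and 0.0651), H2AC16 without siCtrl replicate 3 (0.0555) and H2AC8 without siCtrl replicate 1 (0.0633). The other 16 of the 20 genes with the largest changes were called in every alternative run that tested them. H4C4 (-0.87, adjusted p = 0.0478 in edgeR's test) is outside these 20, and its alternative runs are not given.

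**Figure D2:**
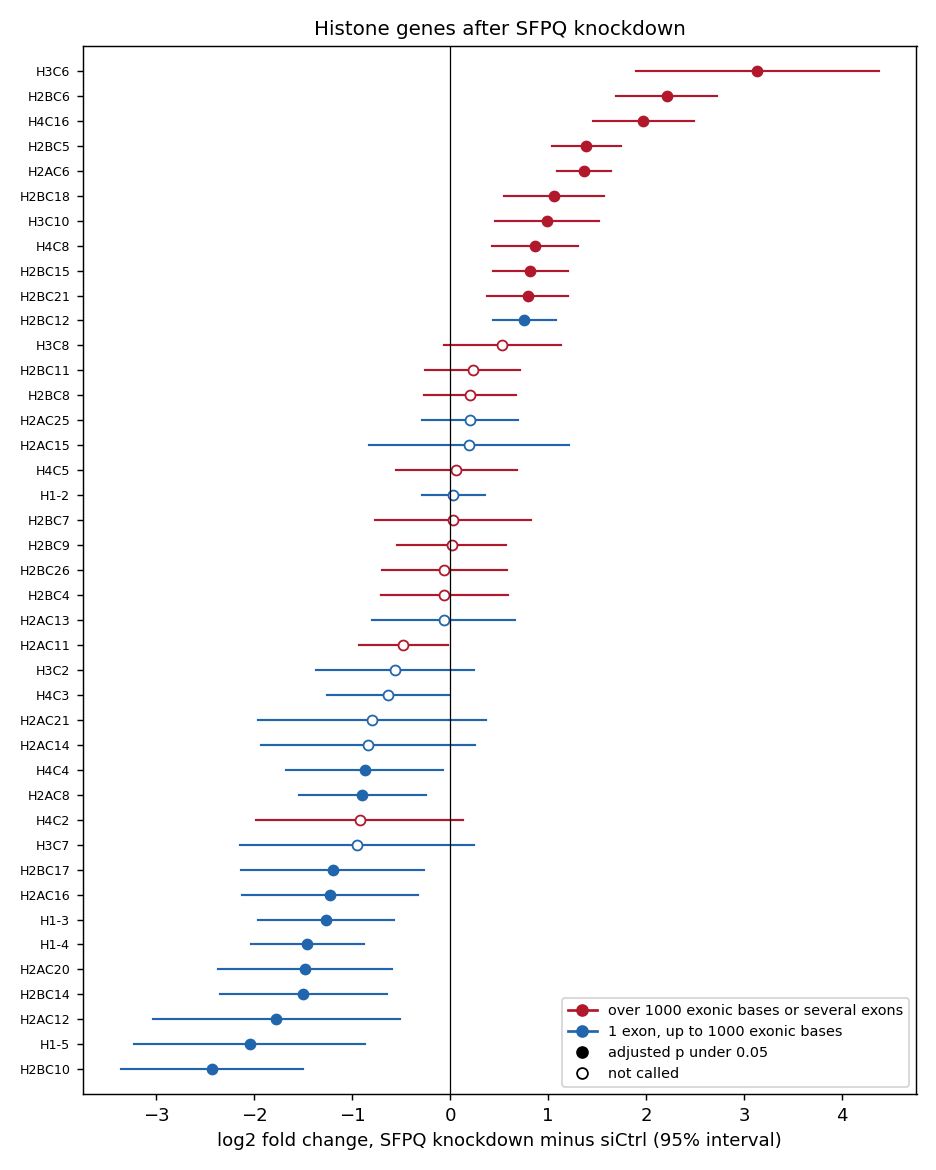
Log2 fold change (SFPQ knockdown minus siCtrl, mean of both siRNAs) of the tested histone genes reported here, with 95% intervals from edgeR; filled points were called, and red marks genes with over 1000 exonic bases or several exons. All risen genes but H2BC12 are red and all fallen genes are blue.

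The direction of change differed with the annotated length of the gene. Of the 19 tested histone genes with over 1000 exonic bases, 9 rose, H3C6 included, and none fell (median 0.53). Of the 23 with up to 1000 bases, 2 rose, H2BC5 and H2BC12, and 11 fell (median -0.87). By exons, 8 of the 10 tested genes with several exons rose, H3C6 again included, and none fell. Among the 21 with 1 exon and up to 1000 bases, H2BC12 rose and 11 fell (median -0.90). Among the 10 genes with a GENCODE 29 transcript that runs past the stem-loop to an AATAAA, 6 rose, H3C6 included, and none fell. Among the 32 tested histone genes without such a transcript, 5 rose and 11 fell. Over all genes tested 34.7% rose and 35.8% fell. Short genes annotated only from start to stop codon could not enter the 10, so this split overlaps with that by length. Over the 42 genes, H3C6 included, Spearman's rho between exonic length and log2 fold change was 0.72, a description across genes that share libraries. The split at 1000 bases was chosen after the values were seen. H3C6 passed the filter through the groups where it is high, so it lends no weight to these values. The counts, medians and rho are given only with it.

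Other short genes rose more often than they fell in the same libraries. Of 697 tested genes that are not histone genes and have 1 exon of up to 1000 bases, 39% rose and 16.9% fell (median 0.41). Of 14672 other tested genes with over 1000 exonic bases, 34.5% rose and 36.9% fell (median -0.03). Of 14187 other tested genes with several exons, 34.6% rose and 37.2% fell (median -0.04). For NONO the same rho among the histone genes was 0.163, and for the libraries labelled ASO-NEAT1 it was -0.503, or -0.077 without ASO-Ctrl replicates 1 and 2.

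**Figure D3:**
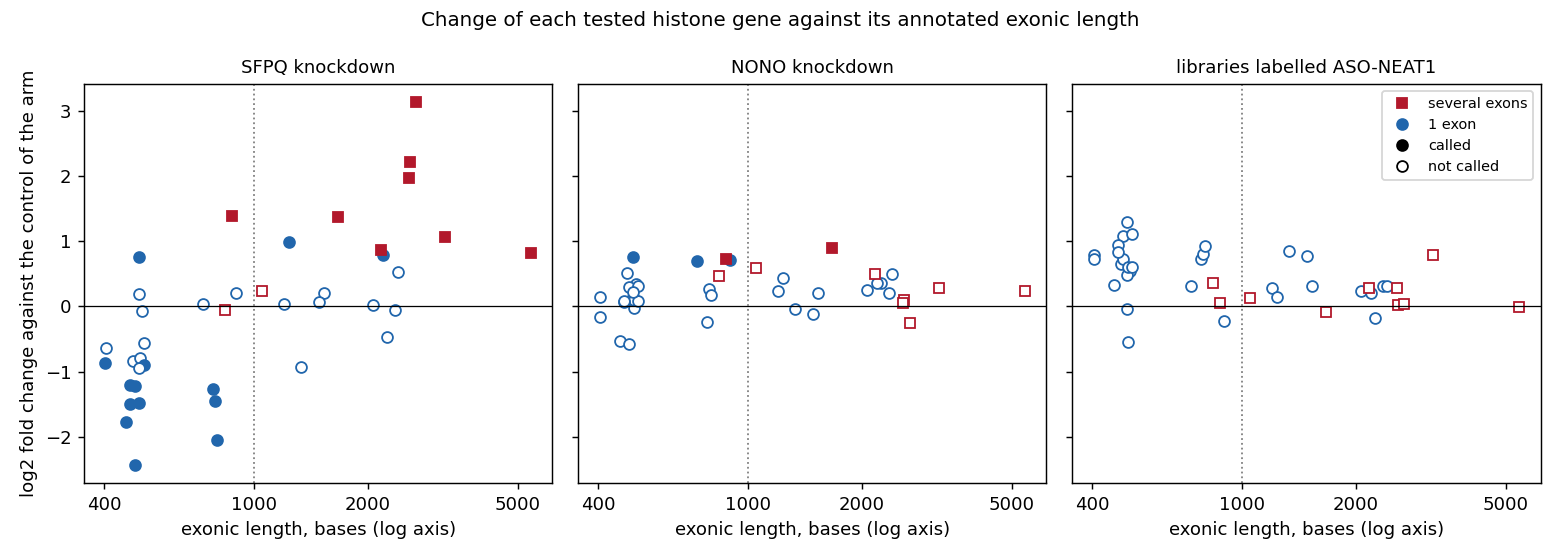
Log2 fold change against annotated exonic length (log axis) of the tested histone genes reported here, in 1 panel each for SFPQ knockdown, NONO knockdown and the libraries labelled ASO-NEAT1; squares have several exons, filled symbols were called, and the dotted line marks 1000 bases. For SFPQ the called genes left of the line lie mostly below 0 and those right of it above 0, and in the ASO panel no gene was called.

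With SFPQ knockdown, neighbouring genes that share a promoter region were called in opposite directions in 2 pairs, where the fallen gene had few reads. In 10 pairs of histone genes on opposite strands the starts lay under 1000 bases apart, a set chosen after the values were seen. In the pair whose promoter is printed above, H2BC21 changed by 0.79 (95% interval 0.38 to 1.2) and H2AC20 by -1.48 (-2.37 to -0.59). H2BC12 changed by 0.76 (0.43 to 1.08) and its neighbour H2AC12 by -1.77 (-3.03 to -0.51). H2AC6 changed by 1.37 (1.09 to 1.65), against -0.06 for H2BC4 (-0.71 to 0.59), and H2BC8 by 0.20 (-0.27 to 0.68), against -0.90 for H2AC8 (-1.54 to -0.25). In the first 2 pairs both genes were called, in opposite directions. H2AC20 had 29 reads in the 6 siSFPQ and 58 in the 3 siCtrl libraries, and H2AC12 had 16 and 41. Both overlapped siCtrl, and H2AC12 was not called without siCtrl replicate 2 (-1.11, adjusted p = 0.158 in edgeR's test). For siSFPQ-2 alone, without the replicate block, H2BC12 was not called (0.37, adjusted p = 0.0807). H2AC14 (-0.84, not called) and H2BC14 (-1.50) had the same sign, and no gene was called in the pairs of H2BC11 (0.23) with H2AC11 (-0.48) and of H2AC25 (0.20) with H2BC26 (-0.06). In the other 3 pairs a gene was not tested. The differences within pairs were not tested.

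The counts of related lists with SFPQ knockdown are to be read against the 34.7% of all genes called higher and 35.8% called lower. Of 24 genes for stem-loop processing and histone transcription, 7 rose and 11 fell (median -0.14), shares near that background. ERI1, an exonuclease that trims histone mRNA ends (1.71), rose, as did TUT7 (1.32) and TUT4 (0.91), which add uridines to RNA ends. The cyclin E genes CCNE1 (-1.89) and CCNE2 (-1.35) and LSM11, a subunit of the U7 particle that cuts histone precursors (-0.66), fell. SLBP, the stem-loop binding protein, and NPAT, the coactivator of histone gene transcription, were named outside the rule; they changed by -0.11 (95% interval -0.29 to 0.07) and -0.03 (-0.19 to 0.13) and were not called. Of 22 histone chaperones, 4 rose, NAP1L1 (0.74), UBN1 (0.32) and DAXX (0.30) among them, and 17 fell, with ATRX (-1.98), CHAF1B (-1.33) and HAT1 (-1.30) the largest (median -0.53). Of 9 tested replacement histones, which are made outside S phase too, none rose and 6 fell, led by H1-10 (-1.14), H2AX (-1.01) and CENPA (-0.81).

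S-phase genes were low and RNAs without a poly(A) tail were high in the same libraries, also by the background of 34.7% called higher and 35.8% lower. Of 24 S-phase genes, 22 fell, GINS1 (-2.24), POLA1 (-2.18) and RRM2 (-1.79) the most, and CDT1 rose (0.39). Their summed share was 793 to 1938 RPM in the 6 siSFPQ libraries, against 2687 to 3278 in siCtrl. Of 9 tested RNAs that lack a poly(A) tail, 7 rose and none fell (median 1.44), among them SCARNA7 (1.56), RNU4-1 (1.56) and RNU4-2 (1.53), and the listed RNAs summed to 289 to 547 RPM in siSFPQ libraries, against 103 to 236 in siCtrl. Mitochondrially encoded genes took 9.59% to 11.6% of counts in siSFPQ libraries, against 7.63% to 9.07% in siCtrl, without overlap. The part of any of these in the histone changes was not tested. In bulk RNA, fewer cells in S phase and less histone RNA per cell cannot be told apart.

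**Figure D4:**
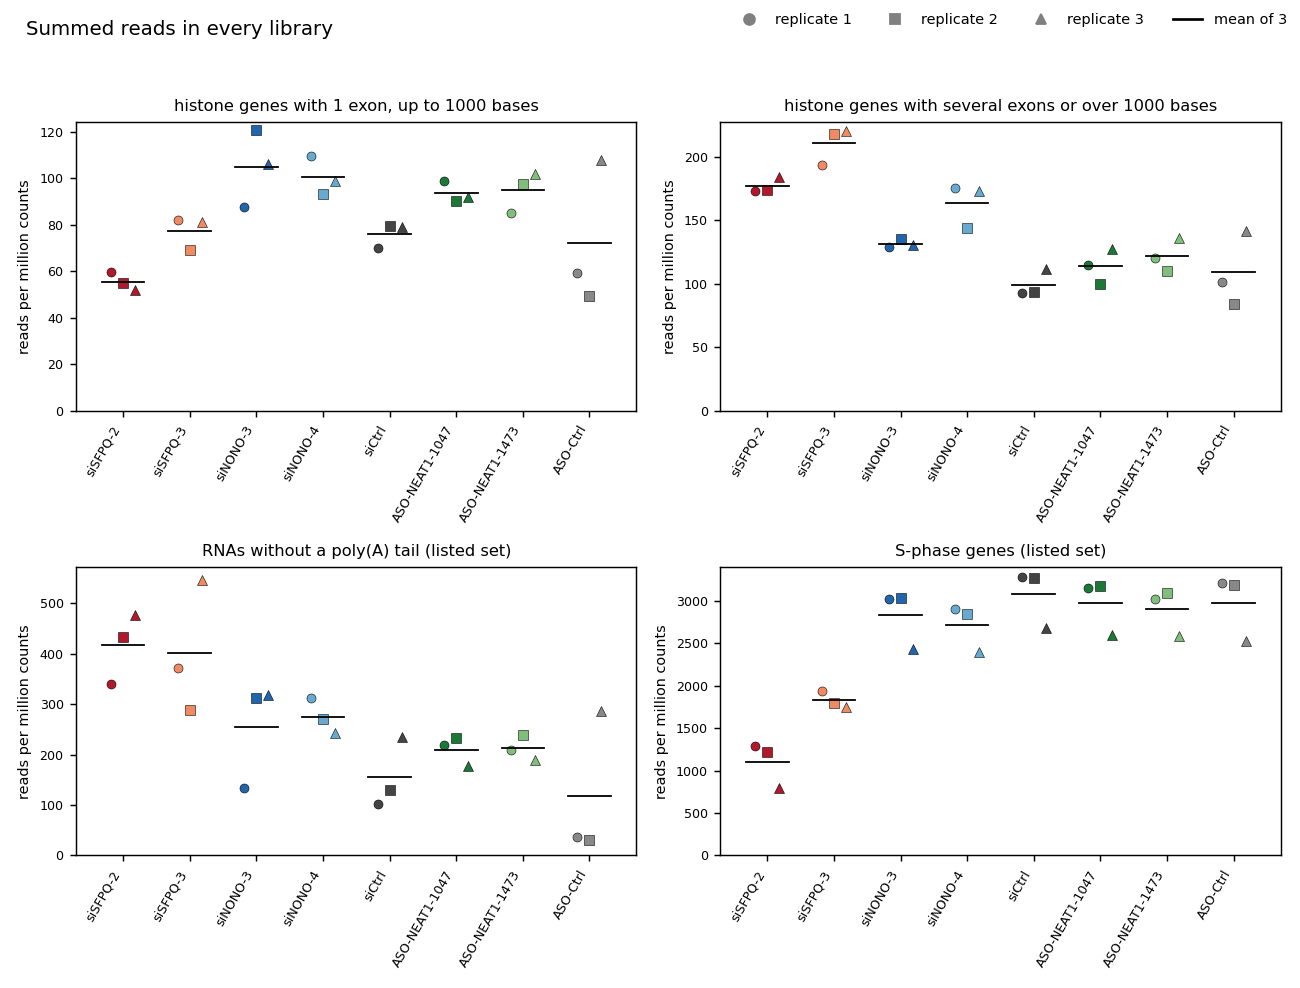
Sums in RPM in each library for 31 short 1-exon histone genes, 23 histone genes with several exons or over 1000 bases, the listed RNAs without a poly(A) tail and the listed S-phase genes; symbols are replicates and bars are means of 3. The long histone sum is 173 to 220 in siSFPQ, against 92.7 to 111 in siCtrl, and ASO-Ctrl replicates 1 and 2 are low in the short histone genes and the RNAs without a tail.

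In sum, 23 histone genes with several exons or over 1000 bases took 173 to 220 RPM in the 6 siSFPQ libraries, against 92.7 to 111 in siCtrl, while 31 short 1-exon genes took 51.8 to 82.1, against 70 to 79.4. The long sums did not overlap between the groups and the short sums did. Within the long set H2AC6 alone took 59.2 to 66.6 RPM with siSFPQ, against 23.6 to 27.1 with siCtrl. The long sum is thus not an even rise of its 23 genes. Together the long and short genes took 229 to 302 RPM with siSFPQ and 216 to 284 with siNONO, against 163 to 190 with siCtrl. The log2 ratio of the group means was 0.57 for SFPQ and 0.51 for NONO, against 0.29 and 0.25 over all 55 genes of the rule. For the libraries labelled ASO-NEAT1 the sums were 190 to 238, against 133 to 249 in ASO-Ctrl.

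NONO knockdown raised 5 histone genes and lowered none. These were H2AC6, H2BC12, H2BC5, H2AC25 and the linker histone H1-2, and the libraries of siCtrl are shared with the SFPQ comparison. In all 5 genes siCtrl averaged less than each group of the ASO arm. H2AC6 averaged 25 CPM in siCtrl and 30.6 to 35.8 CPM in the ASO groups. For H2BC12 these means were 16 and 18.8 to 21 CPM, and for H1-2 14.1 and 16.3 to 20.8 CPM. Whether a low siCtrl has a part in the rises was not tested. Over all genes tested 7.47% were called higher and 9.96% lower, against 11.9% and 0% of the 42 histone genes, and 7 histone genes had an unadjusted p under 0.05. The median log2 fold change was 0.23 for the histone genes and 0.00 for all genes.

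H2AC6 had 36.1, 39.4 and 39.1 CPM in siNONO-3 and 59.4, 50.3 and 61.5 CPM in siNONO-4, against 24.2, 24.1 and 26.7 CPM in siCtrl. Both siNONO groups lay above siCtrl and did not overlap each other (0.90, SE 0.13, adjusted p = 3e-05). H1-2 had 23.1, 26.8 and 28.2 CPM in siNONO-3 and 22.4, 18.6 and 19.2 CPM in siNONO-4, against 11.6, 15.2 and 15.4 CPM in siCtrl, also without overlap (0.70, SE 0.15, adjusted p = 0.00178). H2BC12 had 19.5, 30.7 and 26 CPM in siNONO-3 and 29.9, 27.9 and 29.5 CPM in siNONO-4, against 15.5, 15.7 and 16.8 CPM in siCtrl, above siCtrl in all 6 libraries (0.76, SE 0.16, adjusted p = 0.00104).

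H2BC5 had 21.6, 19.7 and 18.4 CPM in siNONO-3 and 30.2, 23.8 and 34.1 CPM in siNONO-4, against 12.3, 12.4 and 18.9 CPM in siCtrl. Only siNONO-3 replicate 3 reached into the siCtrl range (0.72, SE 0.17, adjusted p = 0.00429). H2AC25, the H2A gene at 1q42, rose by 0.71 (SE 0.23, adjusted p = 0.0308), and this call was lost on leaving out siCtrl replicate 1 (0.49, adjusted p = 0.226), siCtrl replicate 2 (adjusted p = 0.0801), siNONO-3 replicate 2 or 3 (0.0668 and 0.0525) or siNONO-4 replicate 3 (0.0516). Replicate numbers pair the libraries here, and with the replicate number as a block H2BC11 (0.59, adjusted p = 0.0352) and H4C8 (0.50, adjusted p = 0.041) were called as well.

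Of the genes that led the rises in the SFPQ comparison, H2AC6 and H2BC5 also rose with NONO knockdown, while H4C16 and H2BC6 did not. H4C16 had 3.16, 3.08 and 1.4 CPM in siNONO-3 and 3.13, 2.04 and 3.18 CPM in siNONO-4, against 2.77, 2.86 and 2.11 CPM in siCtrl. H2BC6 had 1.09, 1.17 and 1.21 CPM in siNONO-3 and 1.99, 1.82 and 2.15 CPM in siNONO-4, against 1.16, 0.92 and 2.04 CPM in siCtrl. Both overlapped siCtrl, with log2 fold changes of 0.05 (95% interval -0.50 to 0.61) and 0.10 (-0.47 to 0.67). H2BC15 (0.24) and H2BC21 (0.36) did not pass the test with or without the block. H4C8 (0.49) passed with the block, as given above, and not without it. H2BC15 had 7.9, 6.58 and 8.48 CPM in siNONO-3 and 8.55, 8.69 and 10.9 CPM in siNONO-4, and H2BC21 had 9.67, 10.2 and 11.5 CPM in siNONO-3 and 8.45, 6.33 and 11.2 CPM in siNONO-4. H4C8 had 6.02, 5.31 and 5.97 CPM in siNONO-3 and 5.7, 7.19 and 7.69 CPM in siNONO-4.

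With NONO knockdown, where 17.4% of all genes were called in either direction, these members of the related lists passed the test: H2AZ2 fell among 9 replacement histones (-0.25), CRAMP1, a factor for linker histone gene transcription, rose among 24 processing and transcription genes (0.41), RBBP7 fell among 22 chaperones (-0.30) and POLA1 fell among 24 S-phase genes (-0.42). None of the 9 RNAs without a poly(A) tail was called. Their sum was 134 to 319 RPM with siNONO, against 103 to 236 with siCtrl.

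Set directly against NONO knockdown, SFPQ knockdown left 10 histone genes higher and 16 lower of 42. Over all genes 37% were called higher and 38.4% lower (75.4% in either direction), and the median was -0.46 for the histone genes and -0.03 for all genes. The siCtrl libraries do not enter this difference. H3C6 (3.39, at the low level given above), H2BC6 (2.11, SE 0.2, adjusted p = 2.26e-10), H4C16 (1.92, SE 0.2, adjusted p = 1.45e-09), H2BC18 (0.78) and H2BC5 (0.67) were higher with SFPQ knockdown, as was H2AC6 (0.47, SE 0.1, adjusted p = 0.000195). H1-5 (-2.22), H2BC10 (-1.86), H1-4 (-1.72, SE 0.24, adjusted p = 3.81e-07), H2AC20 (-1.62), H2BC14 (-1.56), H2AC16 (-1.52) and H1-3 (-1.02) were lower. Calls that hung on single libraries or settings were those of H4C8 (0.38), lost in 13 alternatives with values down to 0.30 without siNONO-4 replicate 1, H3C7 (-1.18), lost in 6, and H2BC21 (0.43), lost without siNONO-4 replicate 2 (0.34, adjusted p = 0.0584).

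The libraries labelled ASO-NEAT1 gave no called histone gene against ASO-Ctrl, as edgeR called 0% of all genes, and DESeq2 also called none of the histone genes. An unadjusted p under 0.05 was found for 10 of 42 histone genes, and 35 of the 42 log2 fold changes were above 0 (median 0.32, against 0.00 for all genes). Without ASO-Ctrl replicates 1 and 2 this direction turned: 11 of 46 tested histone genes were above 0 (median -0.24), none was called, and 3 had an unadjusted p under 0.05. H2AC6 had 33.5, 22.2 and 36.1 CPM in ASO-NEAT1-1047 and 42.8, 27 and 37.6 CPM in ASO-NEAT1-1473, against 36.8, 30.2 and 38 CPM in ASO-Ctrl. H1-2 had 19.2, 17.5 and 20.5 CPM in ASO-NEAT1-1047 and 20.2, 19.1 and 23.1 CPM in ASO-NEAT1-1473, against 15.3, 11.2 and 22.3 CPM in ASO-Ctrl. The groups overlapped for both genes, and the difference was -0.08 for H2AC6 (95% interval -0.34 to 0.18) and 0.31 for H1-2 (0.00 to 0.61). Without ASO-Ctrl replicates 1 and 2 it was -0.21 for H2AC6 and -0.17 for H1-2.

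The ASO-Ctrl libraries themselves were unlike each other in the short histone genes. H1-4 had 8.48, 7.16 and 4.81 CPM in ASO-NEAT1-1047 and 5.17, 7.24 and 7.79 CPM in ASO-NEAT1-1473, against 3.04, 2.29 and 6.75 CPM in ASO-Ctrl. H1-5 had 7.73, 5.71 and 3.3 CPM in ASO-NEAT1-1047 and 4.9, 4.65 and 5.11 CPM in ASO-NEAT1-1473, against 1.48, 0.672 and 6.75 CPM in ASO-Ctrl. In both genes ASO-Ctrl replicates 1 and 2 were low and replicate 3 lay within or next to the range of the other ASO libraries.

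Over the 31 short 1-exon genes the sum was 84.8 to 102 RPM in the libraries labelled ASO-NEAT1, against 59.2, 49.4 and 108 in ASO-Ctrl replicates 1, 2 and 3. RNU4-2, a small nuclear RNA without a poly(A) tail, had 6, 5.58 and 66.6 CPM in the same ASO-Ctrl libraries. The part of poly(A) selection in the histone values of these libraries was not tested. Without ASO-Ctrl replicate 3, 6 histone genes were called higher, H1-5 (2.32), H2BC14 (1.99), H4C5 (1.64), H2BC18 (1.48), H4C3 (1.46) and H1-4 (1.36), where 0.116% of all genes were called higher. Without ASO-Ctrl replicates 1 and 2, H1-5 gave -0.37 and H1-4 0.01. These 6 genes were named after their values were seen.

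The remaining widely read genes overlapped between the libraries labelled ASO-NEAT1 and ASO-Ctrl. H2BC5 had 15.2, 14 and 20.5 CPM in ASO-NEAT1-1047 and 15.2, 16.2 and 20.8 CPM in ASO-NEAT1-1473, against 16.1, 12.6 and 20.9 CPM in ASO-Ctrl (0.05, 95% interval -0.30 to 0.39). H2BC12 had 20.8, 17.7 and 24.5 CPM in ASO-NEAT1-1047 and 13.6, 20.7 and 22.1 CPM in ASO-NEAT1-1473, against 19.1, 18 and 24.6 CPM in ASO-Ctrl (-0.04, -0.35 to 0.27). H4C16 had 2.83, 1.97 and 2.08 CPM in ASO-NEAT1-1047 and 1.66, 2.58 and 3.44 CPM in ASO-NEAT1-1473, against 1.39, 2.08 and 2.56 CPM in ASO-Ctrl (0.28, -0.29 to 0.84). H2BC15, H2BC21 and H4C8 ran from 5.28 to 9.62, 6.44 to 10.5 and 3.88 to 6.1 CPM in the libraries labelled ASO-NEAT1, against 6.19 to 9.12, 5.25 to 10.8 and 2.49 to 6.64 CPM in ASO-Ctrl. Without ASO-Ctrl replicates 1 and 2 the log2 fold changes were -0.31 for H2BC5, -0.31 for H2BC12 and -0.08 for H4C16, none of them called.

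The siRNAs against SFPQ did not act alike on 7 histone genes, all lower with siSFPQ-2 than with siSFPQ-3: H2BC11, H3C8, H2BC9, H4C8, H2BC12, H1-2 and H2BC15. Over all genes 14.7% were called in this difference, 6.06% higher and 8.61% lower. H2BC11 had 2.81, 1.98 and 2.31 CPM with siSFPQ-2, against 5.85, 6.14 and 6.26 CPM with siSFPQ-3, with no overlap (-1.33, SE 0.29, adjusted p = 0.00182). Without siSFPQ-3 replicate 2 the count was 3. S-phase genes were lower in the same contrast, 20 of 24 called (median -0.85), and their sum was 793 to 1287 RPM with siSFPQ-2, against 1755 to 1938 with siSFPQ-3. Whether the S-phase genes have a part in the histone differences was not tested.

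Between the siRNAs against NONO, H2AC6 alone was called, where 10% of all genes were, 4.71% higher and 5.31% lower (-0.58 for siNONO-3 minus siNONO-4, SE 0.14, adjusted p = 0.00997). With the replicate block, where the numbers pair the libraries, H2BC5 was called too (-0.55, adjusted p = 0.000858). Taken alone against siCtrl, siNONO-3 called 4 histone genes, all higher (9.02% of all genes higher and 10.9% lower, 19.9% in either direction). Likewise siNONO-4 called 3, all higher (5.1% of all genes higher and 5.94% lower, 11% in either). With the replicate block these counts were 7, with H2AC11, H2BC5 and H2BC21 added, and 6, with H1-2, H2AC25 and H4C8 added, and siNONO-3 called 2 without siNONO-3 replicate 2. The ASOs labelled for NEAT1 did not differ in any histone gene (0 called of all genes, and 0 histone genes at an unadjusted p under 0.05). ASO-Ctrl minus siCtrl also gave 0 of 42 (0.454% of all genes, 0.12% higher and 0.334% lower, with 4 histone genes at an unadjusted p under 0.05). With the replicate block, where the numbers pair, H2AC6 was called at 0.48 (adjusted p = 0.0183), and without ASO-Ctrl replicate 3 the count was 3. The median over the histone genes was -0.27 with all libraries, 0.39 without ASO-Ctrl replicates 1 and 2, where none was called, and -0.77 without ASO-Ctrl replicate 3.

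Some histone genes differed by replicate number, in smaller shares than all genes tested in the same arm. With the number as a factor beside group, 7 of 40 tested histone genes were called in the ASO arm, against 24.5% of all genes, among them H1-2, H2AC25, H2AC6, H2BC12, H2BC21 and H2BC5. H2AC6 was 0.51 lower in replicate 2 than in replicate 1 on the log2 scale (adjusted p = 3.82e-05), and H2BC5 was 0.42 higher in replicate 3 (adjusted p = 0.000623). Replicate 3 exceeded replicate 1 in 35 of the 40 genes, but in 17 of 40 without ASO-Ctrl. In the siRNA arm 3 of 39 were called, against 14.5% of all genes, among them H2BC5 and H2BC9. There the count was 1 without siCtrl and 1 without siNONO-4, and H2BC9 was 0.55 lower in replicate 3 than in replicate 1 (adjusted p = 0.0111).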

How the data were processed

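Poly(A)-selected RNA of SBC-3 cells was sequenced, per the labels' protocols. The authors deposited raw read counts per gene, made with featureCounts 2.0.3, per the file headers. Per the submitters' processing notes, the tools also included cutadapt 4.2, STAR 2.7.5a and DESeq2 1.38.1, with hg38 as genome build. Neither the annotation release nor the strand and multi-mapping settings are given in the sources used here.

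From these counts, 1 edgeR 4.0.16 fit (R 4.3.3, quasi-likelihood test, robust, TMM factors from 0.949 to 1.05, expression filter by group) held all 24 libraries and tested 15869 genes. Each comparison set the mean of both reagents for a target against the control of its arm. Calls needed an adjusted p (Benjamini-Hochberg, over all genes) under 0.05, and only called genes are said to rise or fall. Changes are log2 fold changes. DESeq2 1.42.0, other scalings and filters, a replicate block, smaller fits and leaving out each library were alternatives. The scripts were tested on simulated data. Gene names were matched for 60463 genes.

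Histone genes, lists and tests were chosen with earlier results of these data known. Named with every library were H2AC6 and genes averaging 10 CPM in a group, and with a fold change the 10 largest called per direction, at 1 CPM or more in a group. H1-4, H1-5, H2AC20, H2BC6, H2BC9, H2BC10, H2BC11, H3C8 and RNU4-2 were also given by library, chosen after their values were seen. Up to 3 called genes per direction were named from each list. Single items that these rules would name are not reported here; the counts of calls include them, and the sums do not.

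Replicate numbers were taken to pair libraries where every same-numbered pair of a comparison deviated together with a correlation over 0.1. This held for the NONO comparison (9 of 9 pairs, 0.114 to 0.329), for the ASO comparison (9 of 9, 0.132 to 0.428), between the NONO siRNAs and between the controls, and not for the SFPQ comparison (5 of 9). No 2 libraries of a group agreed within sampling noise (chi-square per gene from 3.21 to 12.5). Library totals limit precision for the low histone genes, and no molecular identifiers are mentioned, so reads may include PCR copies.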

Additional observations from a re-analysis of the deposited data

Results flagged for a closer look

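Of the differences between the reagents of a target, 8 passed edgeR's test of the difference itself. The siSFPQ-2 effect lay below the siSFPQ-3 effect for H2BC11 (-1.33, adjusted p = 0.00182), H3C8 (-1.28, 0.0108), H2BC9 (-1.17, 0.015), H4C8 (-0.84, 0.0182), H2BC12 (-0.78, 0.00356), H1-2 (-0.74, 0.00798) and H2BC15 (-0.66, 0.0349). H3C8 had 2.56, 2.98 and 0.629 CPM with siSFPQ-2, against 3.46, 5.89 and 4.22 CPM with siSFPQ-3, without overlap. H2BC9 had 3.2, 1.98 and 1.99 CPM with siSFPQ-2, against 5.97, 6.75 and 3.73 CPM with siSFPQ-3, also without overlap. The siNONO-3 effect lay below the siNONO-4 effect for H2AC6 (-0.58, adjusted p = 0.00997). Libraries of 3 per group were not screened for single outlying samples.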

How the results depend on the processing

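Of 45 named gene results in the SFPQ, NONO and SFPQ minus NONO comparisons, 37 were called in every alternative that tested them. Over 775 such evaluations 745 kept direction and call, 30 lost the call and 0 turned direction. Alternatives in which a gene was not tested are left out. Counts by leaving out 1 library ran from 11 to 12 higher and 9 to 13 lower for SFPQ, 4 to 6 higher for NONO, 0 to 6 higher for ASO-NEAT1, 8 to 10 higher and 14 to 19 lower for SFPQ minus NONO, 3 to 7 for siSFPQ-2 minus siSFPQ-3, 1 to 2 for siNONO-3 minus siNONO-4, 0 to 3 for ASO-Ctrl minus siCtrl, 9 to 17 for siSFPQ-2, 20 to 22 for siSFPQ-3, 2 to 5 for siNONO-3, 3 to 4 for siNONO-4, 0 to 5 for ASO-NEAT1-1047 and 0 to 6 for ASO-NEAT1-1473. Leaving out a group, the replicate number term gave 1 to 3 called in the siRNA arm. With no filter, with DESeq2, and with only the groups of the comparison, siNONO-3 minus siNONO-4 gave 2 calls, and with no filter ASO-Ctrl minus siCtrl gave 1. With the replicate block the counts were 2 for siNONO-3 minus siNONO-4, 1 for ASO-Ctrl minus siCtrl, 7 for siNONO-3 and 6 for siNONO-4. In the comparisons whose numbers pair the libraries, the block changed no call of a histone gene other than those named with it. For SFPQ, where the numbers do not pair the libraries, the block gave 11 higher and 12 lower. The summed log2 ratios over the histone genes reported here, a set chosen after seeing the data, were 0.57 for SFPQ and 0.51 for NONO. The cause of the other shifts was not tested. Depth limits the low genes: 13 of 55 were not tested.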
